A study of Oryza sativa with 4 samples.

Results

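Protein kinases switch the activity of other proteins by adding phosphate to them, and plants hold a very large family of receptor-like kinases, which join an outer domain that senses a signal to a kinase domain inside the cell. Many receptor-like kinase genes lie in tandem arrays of closely related copies and are known for roles in growth, cell wall sensing and defence. The genes described here are 75 protein kinase genes of rice, each read by 1 probe set (short probes that together report 1 transcript) out of 57194 on the array once controls are left out. They are the rows of the study's supplemental table of genotype folds (1996 rows were used here, which are only a part of it, so that members among its other rows are not counted) whose annotation holds the word kinase together with receptor, protein, serine, threonine or brassinosteroid, without the loci of chromosomes 6 and 11, which hold 13 further such rows each. The annotation of 1 of them, LOC_Os03g59530, names a phosphatase that associates with a kinase, not a kinase, and 34 other rows off these chromosomes name a kinase without any of the second words. Gene names beyond the locus number were at hand for 46 of the 75 probe sets.

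RNA came from leaves of rice plants aged 35 days, and 4 Affymetrix Rice Genome Arrays were run, 1 for each pairing of wild type Zhonghua11 or the *hd1–3* mutant with a short or a long day. The SD condition gave 11.5 h of light and 12.5 h of dark, with sampling 3 h into the light, and the LD condition 15 h of light and 9 h of dark, with sampling 5 h into the light. All plants grew at 28 °C, with the last 30 days under the given day length. *hd1–3* is a single mutant line in which several deletions and insertions leave *Hd1*, a regulator of flowering by day length, without function. Hours into the light and day length cannot be told apart. Each group is 1 array, so a genotype difference under 1 day length cannot be checked against replicates.

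The values are linear MAS 5.0 signals with a trimmed mean of 500 on each array, and between 24026 and 24717 probe sets per array reached a signal of 100. The leaf genes of Rubisco activase and of a chlorophyll a/b binding protein had signals between 38091 and 54000 on all arrays. The probe sets of the leaf gene *RBCS* varied, from 28788 to 33062 at the brightest to 18.8 to 35.4 at the dimmest. The seed storage gene *GLUA-1* was between 1.60 and 2.68. *Hd1* itself was dim, at 142 in wild type against 60.5 in *hd1–3* under SD and 89.3 against 5.40 under LD condition. The 3′ over 5′ signal of a GAPDH control was 1.64 and 1.48 in the wild type arrays and 4.16 and 4.25 in the *hd1–3* arrays under SD and LD condition. This ratio moved with genotype, and its part in the genotype differences below was not tested. The same ratio for a cyclophilin control lay between 1.42 and 1.69 on the 4 arrays, and for ubiquitin between 0.627 and 0.718. An actin control gave high ratios on all arrays, but lower in *hd1–3*. They were 4.46 and 3.62 in wild type and 3.75 and 2.92 in *hd1–3* under SD and LD condition. Another actin pair lay between 4.55 and 5.02.

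The rows used here come from a part of the study's table that is ordered by genotype folds on these arrays. The genotype values of the kinase genes are therefore given as a description, with no test. Folds are ratios of signal + 1 on a log2 scale, of *hd1–3* to wild type or of SD to LD. Where a pair of signals is given for a day length, wild type comes first and *hd1–3* second. Of the 75 rows, 44 hold a 0 in 1 of the 4 signal cells of the study's table, while the deposited signals of those cells lay between 17.7 and 560 (median 64.7). From the deposited signals used here, 35 of these 44 probe sets were within 2-fold between genotypes under both day lengths, against 2 of the other 31. The genes were brighter than the array as a whole, with a median of the mean signals of 177 against 63.7, but 16 had all 4 signals below 100, and 38 had all 4 at 100 or more. The spread of a single fold was estimated from how far the SD and LD folds of a probe set lie apart, as a standard deviation over all probe sets of similar signal, scaled to 1 fold. In log2 units it was 1.14 for mean signals of 50 to 100, where 18 of the 75 lie, 0.471 for 200 to 500, and 0.294 for 1000 to 5000.

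In *hd1–3*, 7 kinase genes had signals more than 2-fold below those of wild type in short and in long days, and none was above 2-fold higher or opposite in both. These 7 are among 53 whose brighter array reached 100 in both pairs. Over the whole array, 1.31% of the 24119 probe sets with that minimum were above 2-fold lower in both and 1.22% higher in both. The rows used here come from a part of the table ordered by genotype folds, so the shares are not a test. By any amount, 33 of the 75 were lower in both day lengths, 11 higher in both and 31 of different sign, where 29.3% of all probe sets were lower in both and 24.7% higher. Among the 31 without a 0 cell the counts were 17, 5 and 9. The median log2 fold was -0.16 under SD and -0.43 under LD condition. Past 2-fold and without the signal minimum, 13 genes were higher and 13 lower in *hd1–3* in short days. In long days 2 were higher and 17 lower. Dim genes are among them, such as LOC_Os09g18159 at 17.7 and 51.9 under SD condition. The shares of all probe sets past 2-fold under 1 day length were not counted. The contrast between day lengths is thus not read as particular to the kinase genes. All 13 that were higher under SD condition were within 2-fold, or lower, under LD condition.

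**Figure D1:**
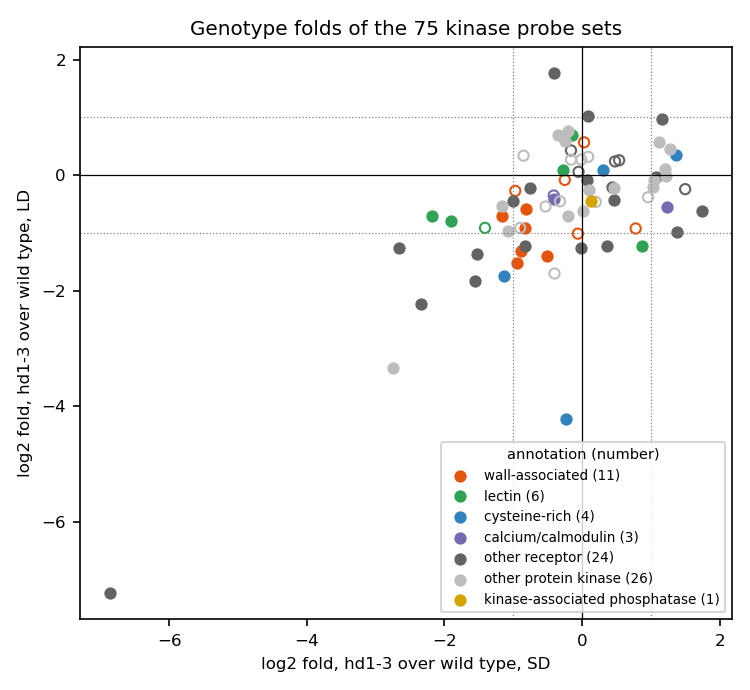
Each point is 1 of the 75 probe sets, with its log2 fold of *hd1–3* over wild type under SD (x axis) against LD condition (y axis). Colours give the annotation group, filled points have a brighter array of 100 or more in both pairs, and dotted lines mark 2-fold. LOC_Os02g40240 stands alone at -6.86 and -7.23, and the upper right corner beyond 2-fold in both is empty.

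LOC_Os02g40240, annotated as a receptor kinase, was the brightest of the 75 in wild type leaves and near the noise of the arrays in *hd1–3*. The wild type arrays gave 9925 (SD) and 19069 (LD), the *hd1–3* arrays 84.5 and 126. Both wild type arrays were far above both *hd1–3* arrays, with log2 folds of -6.86 and -7.23. With the *hd1–3* signal under SD condition raised to 100, the difference there came to at least 99.3-fold. Among loci of the table close to it by number, LOC_Os02g40260, a gene of unknown function 2 loci further, had signals of 2110 and 269 under SD and 2780 and 1173 under LD condition, so it was also lower in *hd1–3*. LOC_Os02g40860, a casein kinase 1 gene 62 loci further that is not among the 75 because its annotation lacks the second word, had 914 and 2712 under SD and 1071 and 2761 under LD condition, so it was higher in *hd1–3*. LOC_Os02g40770 (*SDG712*), a SET domain gene 53 loci further, had 704 and 86.9 under SD and 912 and 25.8 under LD condition, lower in *hd1–3* in both. These 3 loci, all from the part of the table ordered by genotype folds, are only some of the rows nearby. The others also went either way. LOC_Os02g40100, 14 loci before, had 757 and 1612 under SD and 1671 and 3023 under LD condition, higher in *hd1–3* in both. LOC_Os02g39970, 27 loci before, had 1605 and 926 under SD and 3723 and 1772 under LD condition, lower in both. No shared direction of the neighbourhood is read from them.

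**Figure D2:**
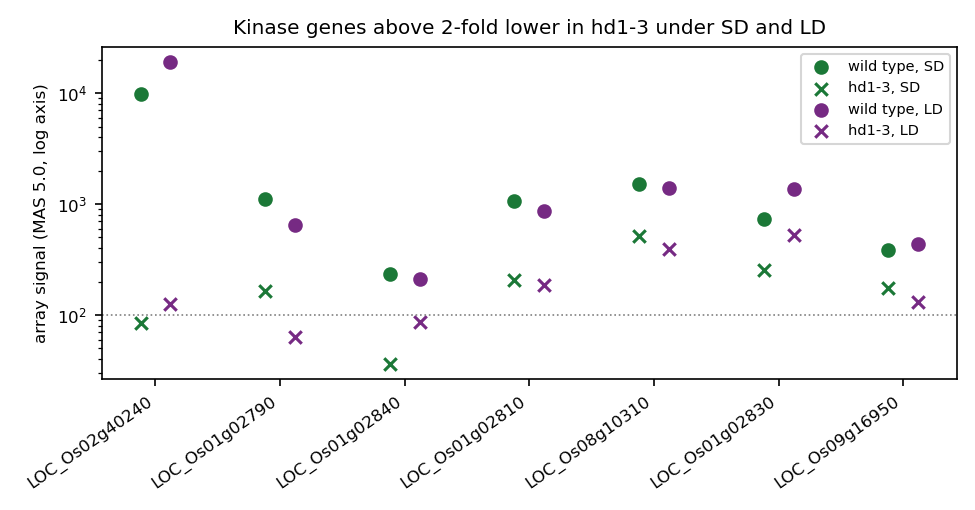
Signals of the 7 kinase genes above 2-fold lower in *hd1–3* under both day lengths, on a log axis, with circles for wild type, crosses for *hd1–3*, green for SD and purple for LD condition, 1 array each. In every gene both circles lie above both crosses. The dotted line marks a signal of 100.

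The other lower genes were 4 neighbours on chromosome 1 and 2 genes on chromosomes 8 and 9. LOC_Os08g10310, which shares its annotation with SHR5, a receptor-like kinase first described in sugarcane, had 1524 and 516 under SD and 1409 and 396 under LD condition. Its log2 folds were -1.56 and -1.83. LOC_Os09g16950, annotated as cysteine-rich receptor-like protein kinase 25, had 387 and 175 under SD and 437 and 130 under LD condition, that is, -1.14 and -1.74 on the log2 scale. In both genes each wild type array was above each *hd1–3* array.

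Of the 75 genes, 24 lay in 9 clusters of neighbouring loci, where successive locus numbers differ by at most 300 (about 30 genes). The cluster with the most members, on chromosome 1 from LOC_Os01g02560 to LOC_Os01g02840, held 7 receptor-like kinase or kinase domain genes, and all 7 had lower signals in *hd1–3* under both day lengths, 4 of them by more than 2-fold in both. LOC_Os01g02790, a kinase domain gene, had 1100 and 163 under SD and 647 and 63.7 under LD condition, or at least 6.47-fold lower under LD condition. LOC_Os01g02810, annotated as a resistance-related receptor-like kinase, had 1055 and 208 under SD and 870 and 186 under LD condition. LOC_Os01g02830, annotated as the receptor-like kinase ARK1AS, had 728 and 254 under SD and 1354 and 523 under LD condition. In these 3 genes every wild type array was above every *hd1–3* array.

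LOC_Os01g02840, again a resistance-related receptor-like kinase, was dimmer, at 236 and 36.4 under SD and 209 and 86.4 under LD condition, or at least 2.36-fold and 2.09-fold lower. LOC_Os01g02560, a Ser/Thr receptor-like kinase, had 294 and 165 under SD and 223 and 95.1 under LD condition. LOC_Os01g02590, a receptor-like kinase, had 488 and 244 under SD and 506 and 370 under LD condition. LOC_Os01g02680, a kinase domain gene, had 601 and 269 under SD and 408 and 282 under LD condition. The last 3 thus lay between -0.45 and -1.22 on the log2 scale.

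Neighbours that the rule did not choose were lower in part. LOC_Os01g02780, annotated as TAK33 and also a row of the table, had 357 and 156 under SD and 402 and 88.2 under LD condition. LOC4326099, a RefSeq gene between the cluster's members, had 494 and 140 under SD and 263 and 35.6 under LD condition, with folds (log2) of -1.81 and -2.85. Its probe set shares the stem of its name with that of LOC_Os01g02780, and whether the pair reports 1 gene was not tested. The other 2 genes measured between the members, LOC4326093 and LOC4326095, had log2 folds between -0.48 and -0.03. Of the 6 RefSeq genes on either side of the cluster, the 5 bright probe sets that follow it lay between -0.40 and 0.64. The 4 that precede it lay between -0.29 and 0.51 under SD condition, and none was above 2-fold in both, while LOC4326102 had 157 in wild type and 25.4 in *hd1–3* under LD condition.

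**Figure D3:**
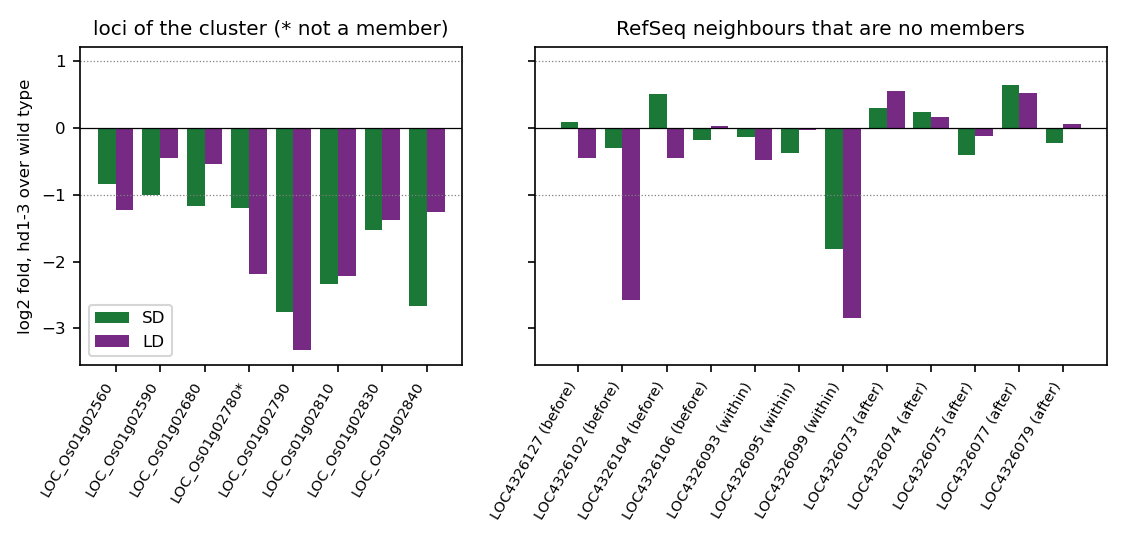
Log2 folds of *hd1–3* over wild type under SD (green) and LD condition (purple). The left panel gives the 7 loci of the chromosome 1 cluster and LOC_Os01g02780 (asterisk) in order of locus number, all below 0, and the right panel the neighbouring RefSeq genes with a brighter array of 100 or more in both pairs, which lie mostly near 0 except LOC4326099 and, under LD condition, LOC4326102.

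Probes of this cluster may read more than 1 locus. Of its 7 probe sets 4 have the suffix x, which marks probes shared with other transcripts, where 16% of all 75 and 12.5% of the array carry it. LOC_Os01g02790, LOC_Os01g02810 and LOC_Os01g02840 are read by probe sets with 1 common name stem. A further bright probe set of that stem, assigned to LOC4326127 before the cluster, had 185 and 197 under SD and 200 and 147 under LD condition, with log2 folds of 0.09 and -0.44, so it was lower in *hd1–3* only under LD condition. A second bright probe set of the stem of LOC_Os01g02830 had 302 and 355 under SD and 521 and 485 under LD condition, with folds (log2) of 0.23 and -0.10 against -1.52 and -1.37 for the probe set in the table. Whether these probe sets report the same transcripts was not tested.

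The other clusters were smaller and differed in direction. The pairs on chromosome 4 (LOC_Os04g30010 and LOC_Os04g30240) and on chromosome 7 were lower in *hd1–3* under both day lengths. LOC_Os07g03880 and LOC_Os07g03890 on chromosome 7 encode lectin-like receptor kinases, whose outer domain resembles sugar-binding proteins. LOC_Os07g03880 had 1836 and 489 under SD and 1330 and 768 under LD condition. LOC_Os07g03890 had 224 and 48.6 under SD and 271 and 166 under LD condition. Both were thus above 2-fold lower in *hd1–3* under SD condition and within 2-fold under LD condition, with folds (log2) of -0.79 and -0.70. On chromosome 8, LOC_Os08g10290, the neighbour of LOC_Os08g10310 with the same SHR5 annotation, had 103 and 132 under SD and 164 and 70.1 under LD condition, so the pair differed in sign under SD condition.

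LOC_Os08g02996, a receptor-like kinase gene, was the nearest to being 2-fold higher in both, with 137 and 306 under SD and 111 and 219 under LD condition, that is, 1.16 and 0.98 on the log2 scale. Its neighbour LOC_Os08g03160, lectin-like receptor kinase 1, had 162 and 147 under SD and 102 and 167 under LD condition. On chromosome 2, LOC_Os02g48080, cysteine-rich receptor-like protein kinase 7, had 170 and 440 under SD and 292 and 372 under LD condition. The lectin-like kinase gene LOC_Os02g48210 close to it had 113 and 208 under SD and 498 and 213 under LD condition, higher and then lower in *hd1–3*. The pair LOC_Os01g66760 and LOC_Os01g66860 lay between -0.98 and 1.38, and the pair LOC_Os09g39860 and LOC_Os09g39930 between -0.71 and 0.20 on the log2 scale.

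Wall-associated kinases span the plasma membrane and, in Arabidopsis, bind pectin of the cell wall. Of the 11 among the 75, 9 had lower signals in *hd1–3* under both day lengths, 1 was higher in both and 1 differed in sign. None was above 2-fold lower in both. Over all probe sets, 29.3% were lower in both, but the rows used come from a part of the table ordered by genotype folds. Some of the 9 were dim, such as *OsWAK9* with log2 folds of -0.25 and -0.08. The median log2 folds of the 11 were -0.81 under SD and -0.92 under LD condition. *OsWAK60* (LOC_Os04g30240), the brightest, had 2090 and 1463 under SD and 1735 and 664 under LD condition. *OsWAK112d* (LOC_Os10g10130) had 889 and 481 under SD and 903 and 364 under LD condition. *OsWAK82* (LOC_Os09g29540), annotated as a receptor-like cytoplasmic kinase, had 476 and 268 under SD and 506 and 267 under LD condition. In each of these 3 genes both wild type arrays were above both *hd1–3* arrays.

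*OsWAK6* (LOC_Os01g26210) had 312 and 140 under SD and 360 and 221 under LD condition, and a second probe set of the same name stem had 208 and 96.1 under SD and 347 and 198 under LD condition. Its neighbours *OsWAK7* and *OsWAK9* (LOC_Os01g26270 and LOC_Os01g26300) were dim, between 39.7 and 102 on all arrays. *OsWAK45* (LOC_Os04g30010), which forms a cluster with *OsWAK60*, had 124 and 70.1 under SD and 235 and 156 under LD condition. *OsWAK129b* (LOC_Os12g42070) had 120 and 62.1 under SD and 199 and 69.2 under LD condition. Over all 11, the log2 folds lay between -1.16 and 0.78 under SD and between -1.51 and 0.57 under LD condition.

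**Figure D4:**
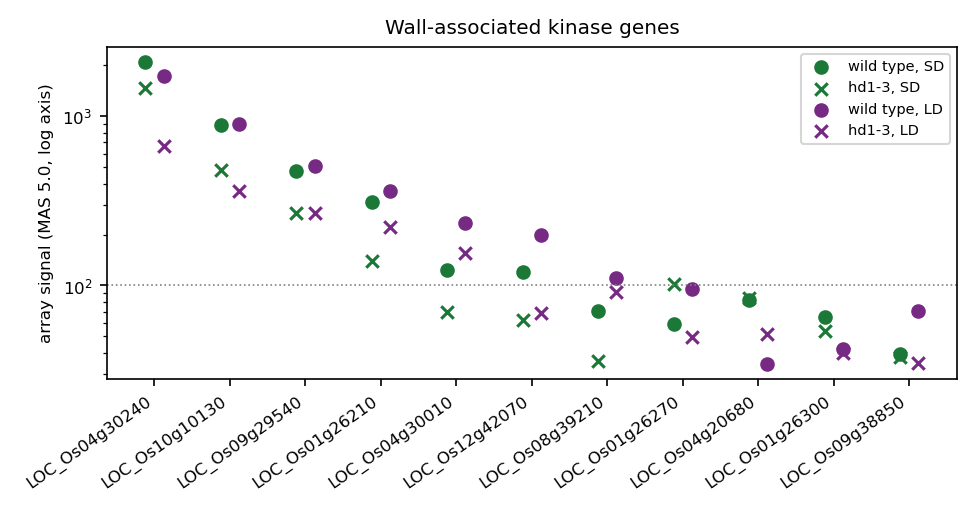
Signals of the 11 wall-associated kinase genes on a log axis, in order of mean signal, with circles for wild type, crosses for *hd1–3*, green for SD and purple for LD condition, 1 array each. In the 6 brightest genes each cross lies below the circle of the same colour, and the 5 genes to the right are near or below a signal of 100 (dotted line).

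The remaining groups were mixed. The 6 lectin-type kinase genes comprised 3 that were lower in both day lengths and 3 that differed in sign. The 4 cysteine-rich receptor-like kinases, whose outer part carries repeats with conserved cysteines, comprised 2 lower and 2 higher in both. The 24 other receptor kinases comprised 9 lower, 4 higher and 11 of different sign, and the 26 other protein kinases 8, 4 and 14. Among the latter, LOC_Os08g01270 had 4506 and 2139 under SD and 3941 and 2015 under LD condition, that is, -1.07 and -0.97 on the log2 scale. A second probe set of this gene had 3356 and 2636 under SD and 2642 and 1924 under LD condition, in the same direction but at -0.35 and -0.46. Of 6 pairs of bright probe sets for 1 gene, 4 had the same sign under both day lengths.

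LOC_Os03g02190, a kinase domain gene, had 1397 and 3031 under SD and 2411 and 3590 under LD condition. LOC_Os10g29620, annotated with a tyrosine protein kinase domain, had 1118 and 2578 under SD and 2182 and 2349 under LD condition. Both were above 2-fold higher in *hd1–3* only under SD condition. A second probe set of LOC_Os10g29620 had 702 and 879 under SD and 1106 and 1261 under LD condition, higher in *hd1–3* by only 0.32 and 0.19 on the log2 scale. LOC_Os03g56270, annotated as CLAVATA1, which in Arabidopsis is a receptor that limits the stem cells of the shoot meristem, had 851 and 900 under SD and 1006 and 2041 under LD condition. LOC_Os07g29330, annotated as CTR1, which in Arabidopsis restrains ethylene responses, had 201 and 152 under SD and 93.1 and 28.0 under LD condition.

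The genotype fold depended most on day length in LOC_Os04g25060, a cysteine-rich receptor-like protein kinase gene. The wild type arrays gave 265 (SD) and 3366 (LD), the *hd1–3* arrays 225 and 179. The wild type LD array stood apart from the other 3, with log2 folds between genotypes of -0.23 and -4.22, and between SD and LD of -3.66 in wild type and 0.33 in *hd1–3*. The rule used these genotype folds, the difference between them rests on 1 array, and it was not tested. Among the next 4 genes by this difference, all with mean signals under 300, LOC_Os10g06760 had 42.2 and 144 under SD and 139 and 89.8 under LD condition, and LOC_Os01g66760 had 66.7 and 175 under SD and 264 and 133 under LD condition. LOC_Os01g07560 had 204 and 154 under SD and 60.4 and 208 under LD condition, the reverse of the order in those genes.

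Day length was compared with limma over the 4 arrays, with genotype as a term and Benjamini-Hochberg adjustment over the 28133 probe sets that reached 100 on any array. Of the 59 kinase genes in that fit, 2 were higher and 4 lower under SD than under LD condition at an adjusted p under 0.05, where 6.53% of all tested probe sets were called higher and 7.09% lower. The counts of the kinase genes were not read as differing from that background, and without adjustment 18 of the 59 had p under 0.05, beside 7591 of all 28133. Their median difference between SD and LD was -0.09 on the log2 scale, beside -0.05 over all tested probe sets. The residual of this fit is the difference between the SD and LD genotype folds, which also entered the choice of rows, so the test is not wholly independent of the rule. Of the 6 calls, at most 1 stood with any 1 array left out.

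Among the called genes, the largest day length difference was that of LOC_Os04g43710. Its annotation places it in the kinase class CAMK, which includes calcium/calmodulin-dependent protein kinases. The SD arrays gave 812 (wild type) and 610 (*hd1–3*), the LD arrays 252 and 190. Both SD arrays were above both LD arrays, with a log2 difference of 1.68 (standard error 0.205, limma adjusted p = 0.000919, 2 arrays per day length). The genotype folds were -0.41 under both day lengths, so the day length difference was nearly the same in wild type (1.69) and *hd1–3* (1.68). It was 1 of 3 genes above 2-fold in the same direction in both genotypes. The second was LOC_Os07g29330, and the third was LOC_Os10g05250, a kinase domain gene at 85.1 and 90.7 under SD and 34.4 and 43.2 under LD condition.

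Within the chromosome 1 cluster, neighbours differed in opposite directions between day lengths. LOC_Os01g02790 was higher under SD condition by 1.05 on the log2 scale (standard error 0.248, limma adjusted p = 0.0216), and LOC_Os01g02830 was lower under SD condition, at -0.97 (standard error 0.183, limma adjusted p = 0.00798). Each direction held in wild type and in *hd1–3*, with log2 folds of SD over LD of 0.76 and 1.34 for the first gene and -0.89 and -1.04 for the second. The other 5 members of the cluster lay between -0.52 and 0.59 and were not called. LOC_Os02g40240 was lower under SD condition, at -0.76 (standard error 0.168, limma adjusted p = 0.0167), although in *hd1–3* that comparison sets a signal of 84.5 against 126.

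The remaining calls were dimmer. LOC_Os04g01310, annotated as a serine/threonine-protein kinase receptor, had 95.8 and 204 under SD and 314 and 307 under LD condition (wild type first), a difference of -1.15 (standard error 0.328, limma adjusted p = 0.0486). LOC_Os09g17630, receptor-like protein kinase 2, had 152 and 205 under SD and 370 and 322 under LD condition, a difference of -0.96 (standard error 0.269, limma adjusted p = 0.0442). A second probe set of this gene had 155 and 172 under SD and 217 and 207 under LD condition, in the same direction at -0.37 (standard error 0.295, limma adjusted p = 0.467). In both genes the SD arrays lay below the LD arrays, but the calls were lost under quantile normalization.

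**Figure D5:**
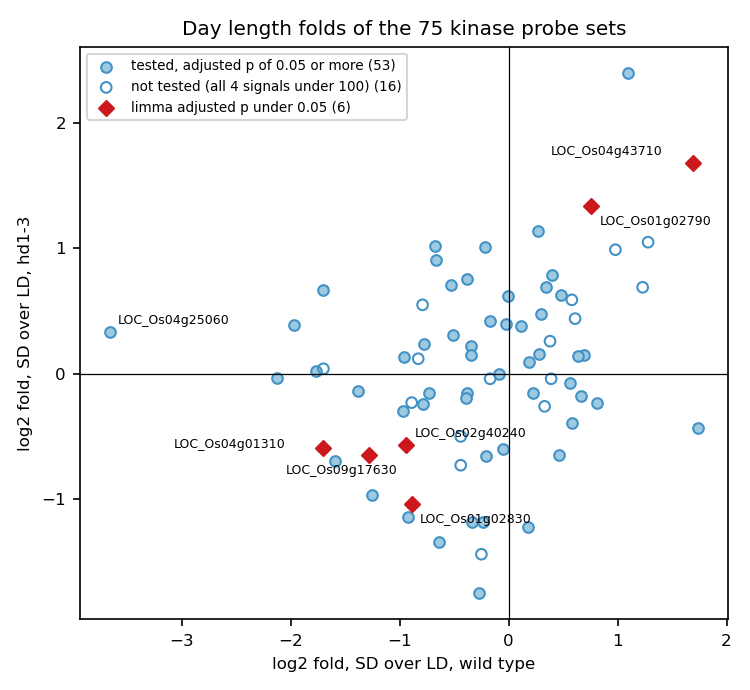
Log2 fold of SD over LD condition in wild type (x axis) and in *hd1–3* (y axis) for the 75 probe sets, 1 array per group. The 6 red diamonds passed limma at an adjusted p under 0.05 and lie in the quadrants where the genotypes share a sign, while LOC_Os04g25060 lies at -3.66 in wild type and 0.33 in *hd1–3*.

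By signal alone, the genotypes gave different counts of day length differences. In wild type, 9 of the 53 genes with the signal minimum were above 2-fold lower under SD condition (17.0%, beside 6.18% of all such probe sets) and 2 higher (beside 4.24%). In *hd1–3*, 6 were lower (beside 5.88%) and 4 higher (beside 4.57%). The same arrays entered the choice of rows, so these shares are a description. LOC_Os12g41090, a CAMK gene annotated as KIN1/SNF1/Nim1-like, had 328 and 774 under SD and 1118 and 763 under LD condition (wild type first), so it differed between day lengths in wild type and hardly in *hd1–3*.

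A list of receptor kinase signalling genes, with the 75 left out, was set beside them. Names were chosen by role and matched to symbols or synonyms. A name could thus match more than 1 gene, as *MPK3* and *CERK1* did. The list held 13 probe sets of 11 genes, 12 of them tested. For genotype, limma with day length as a term called 0 of the 12 (0 with an unadjusted p under 0.05), where 2.07% of all tested probe sets were called (1.09% higher and 0.985% lower in *hd1–3*), and their differences lay between -0.66 and 0.33 with a median of -0.05. The brassinosteroid receptor gene *BRI1* (LOC4324691) had 1933 and 2551 under SD and 1183 and 1408 under LD condition. The co-receptor gene *SERK1* (LOC4344785, also named *BAK1*) had 1545 and 1425 under SD and 1314 and 1147 under LD condition. A MAP kinase gene with the synonym *MPK3* (LOC4328297) had 4965 and 4588 under SD and 3401 and 3214 under LD condition. In these 3 the SD arrays were above the LD arrays. The other gene with the synonym *MPK3* (LOC4332475) had 609 and 698 under SD and 724 and 896 under LD condition, with the SD arrays below the LD arrays (-0.30, standard error 0.174, limma adjusted p = 0.306).

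For day length, 3 of the 12 were called, all higher under SD condition, where 6.53% of all tested probe sets were called higher and 7.09% lower. *BRI1* differed by 0.78 (standard error 0.148, limma adjusted p = 0.00814), and LOC4328297 by 0.53 (standard error 0.126, limma adjusted p = 0.0224). The *GSK1* gene (LOC4337722), which encodes a GSK3-like kinase of the brassinosteroid pathway, differed by 0.71 (standard error 0.141, limma adjusted p = 0.0105) at its brighter probe set. The chitin receptor candidates with the synonym *CERK1* (LOC4346173 and *RLK10*), the *BZR1* transcription factor gene LOC4343719 and *MPK6* (LOC4349225) were not called, with differences between -0.36 and 0.04.

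Kinase families matched by gene name, again without the 75, held 113 probe sets of 88 genes, 101 of them tested. Limma called 1 lower and 0 higher for genotype, where 1.09% of all tested probe sets were called higher and 0.985% lower. Without adjustment 10 of the 101 had p under 0.05, beside 3288 of all 28133. The call was *CIPK14* (LOC4351307), a kinase that acts with calcineurin B-like calcium sensors, at 2839 and 925 under SD and 876 and 405 under LD condition, a difference of -1.36 (standard error 0.183, limma adjusted p = 0.0042). The study's table assigns the same probe set to a locus of chromosome 11, LOC_Os11g02240. The probe set is thus also in the part ordered by genotype folds, and the call is not independent of that order. The median genotype difference of these families was -0.02 on the log2 scale.

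Of the 34 kinase rows of the table that lack a second word, 3 were above 2-fold in both day lengths with the signal minimum. LOC_Os02g40860, described above, was higher in *hd1–3* in both. LOC_Os07g35340, a kinase of the DUF26 class to which cysteine-rich receptor-like kinases belong, had 130 and 40.4 under SD and 358 and 74.6 under LD condition, lower in both. LOC_Os05g03920, of the same class, had 305 and 635 under SD and 199 and 97.3 under LD condition, higher under SD and lower under LD condition. These 3 were named after their values were seen.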

How the data were processed

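RNA of rice leaves was measured on 4 arrays. Intensities deposited by the authors are linear MAS 5.0 signals, 1 per array for each probe set, and no source used here gives the software version. The deposited intensities were not normalized further, and 187 control probe sets were removed. The number of arrays limits the precision, and p-values rest on 1 residual degree of freedom and 8.29 that limma takes from all probe sets. Labels and files name no batch.

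Folds used log2(signal + 1), which understates changes of dim genes. In R 4.3.3, limma 3.58.1 with lmFit and a trended eBayes tested day length, and genotype for the 2 other lists, with the other factor as a term, at an adjusted p of 0.05. On simulated arrays of 28133 probe sets with 200 changed for day length, it recovered 0%, 67.0% and 73.5% of changes of 1, 2 and 3 on the log2 scale, with 0, 25 and 14 false calls, most of them dim. In the data 3831 were called for day length, far more than were changed in the simulation. The adjusted cutoff depends on that number, so these recovered shares do not carry over to the data. There, differences below 1 were also called, such as -0.76 for LOC_Os02g40240. Other steps used Python 3.11.15, pandas 2.3.3 and numpy 2.4.6.

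The 75 genes and all lists were chosen with earlier results of these data known. Named genes are those above 2-fold in both day lengths, those in clusters, the called ones, the 5 whose SD and LD folds differ most, the 5 brightest and 2 to 4 examples per annotation group. Genes of other kinase families were to be found by gene descriptions, but were matched by family names among symbols and synonyms instead. RefSeq assembly ASM3414082v1 served for names and gene order only. Fold columns of the study's table were not used. The alternatives tried were an offset of 32 instead of 1, quantile normalization, no filter, a filter at 500, the tested factor alone, each array left out, rows without a 0 cell, and a cluster gap of 100.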

Additional observations from a re-analysis of the deposited data

How the results depend on the processing

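The count of 7 kinase genes above 2-fold lower in both day lengths was 7 with 32 added or without the signal minimum, 8 with quantile normalization, 5 with a minimum of 500, and 6 among rows without a 0 cell. Under quantile normalization LOC_Os08g01270 joined the lower genes and LOC_Os08g02996 became the 1 gene higher in both. With a gap of 100 there were 7 clusters of 18 genes. The 6 day length calls among the kinase genes were 6 with 32 added, 5 with quantile normalization or no filter, 3 with a filter at 500 (20 of the genes tested) and 1 with day length as the only term, and between 0 and 1 with each array left out. Over all probe sets, 3831 day length calls became 1298 with day length alone, and between 196 and 597 with each array left out. Fits with an array left out keep 1 array in a group and only the tested factor, so genotype then enters the spread. In them the day length difference of LOC_Os02g40240 ran from -4.37 to 2.86, reversing to 2.67 without *hd1–3* SD and 2.86 without wild type LD, and that of LOC_Os01g02790 from -0.61 to 2.71, reversing to -0.32 without wild type SD and -0.61 without *hd1–3* LD, as a genotype difference then enters the day length difference. LOC_Os04g43710 kept its call without wild type LD and with day length alone (limma adjusted p = 0.025). The calls of LOC_Os09g17630 and LOC_Os04g01310 were lost under quantile normalization (limma adjusted p = 0.0854 and 0.0883) and no filter (0.0694 and 0.0681). The signalling list stayed at 0 genotype calls in every setting run. The 1 genotype call of the kinase families became 0 with genotype alone and 0 with each array left out. No paired analysis was possible because each group has 1 array and no replicates to pair, beyond the fit with genotype as a term, which already compares day lengths within each genotype.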

Other observations

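Among kinase genes of families outside the 75, day length calls were more numerous than the 1 genotype call, as over the array as a whole. Of the 101 tested probe sets of the families matched by name, limma called 16 higher and 14 lower under SD condition. Of all tested probe sets, 6.53% and 7.09% were called. Of the 32 probe sets of CIPK genes, whose products act with calcineurin B-like calcium sensors, 10 were higher and 8 lower. Some genes have more than 1 probe set, and 4 of these 8 are of *CIPK10*. *CIPK5* (LOC4327093) had signals of 18259 and 16995 under SD and 5182 and 5123 under LD condition (wild type first), a difference of 1.77 on the log2 scale (standard error 0.11, limma adjusted p = 4.95e-05). *CIPK6* (LOC4345687) had 1819 and 1311 under SD and 347 and 258 under LD condition, a difference of 2.36 (standard error 0.176, limma adjusted p = 8.38e-05). *CIPK10* (LOC4332786) went the other way at each of its 4 called probe sets, with differences between -2.59 and -1.49, and one of them had 313 and 267 under SD and 1775 and 1654 under LD condition. In each of these genes both arrays of a day length lay on 1 side of both arrays of the other. Hours after light cannot be told apart from day length here. These values stand as measurements, and *CIPK5*, *CIPK6* and *CIPK10* were named as the family's members with the most marked differences.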
